A study of Mus musculus with 6 samples.

Results

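The integrated stress response and ATF4 target genes described here are 42 genes, chosen by symbol as eIF2 kinases, ATF4 and its target genes among stress genes, amino acid transporters and tRNA synthetases. They correspond to 43 rows of the 32285 in the count table, because the annotation gives Ddit3 a second identifier, and 41 rows passed the filter on low counts. Fgf21 and the second Ddit3 identifier did not pass it. RNA was sequenced from mouse germline stem cells, the cultured form of spermatogonial stem cells, of a single wild-type line that carries GFP and is named for the DBA strain. The control group, 3 libraries, was grown in complete medium, and the pyruvate group, also 3 libraries, in medium named for 8 mM pyruvate. All 6 libraries share the line and the genotype, and the labels give neither the time in culture nor whether the libraries are separate cultures. The comparison addresses how transcripts of these cells differ between the media, within a study of how alanine use bears on the energy supply of these stem cells.

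The integrated stress response starts with kinases that phosphorylate the translation factor eIF2 when amino acids run short, when proteins misfold in the endoplasmic reticulum, or when haem or mitochondrial function is disturbed. Phosphorylated eIF2 slows most translation but favours translation of the ATF4 mRNA, and ATF4 then activates genes for amino acid uptake and synthesis, for charging tRNAs and for ending the response. Kinase activity, eIF2 phosphorylation and ATF4 protein were not measured here. The transcripts therefore show the level of the components and of the targets, not the activity of the kinases.

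ATF4 binds DNA mainly as a dimer with C/EBP family proteins at a composite element with the core TGATGNAA, the C/EBP-ATF response element. RefSeq promoter windows on GRCm38.p6, from 250 bases before to 50 bases after a start site, were matched by symbol for 33 of the 42 members (37 windows). The core was searched on both strands and was present for 14 of the 33 members, while 3.97% of all 32851 windows held it. Those members were Aars, Asns, Atf3, Chac1, Fgf21, Gars, Herpud1, Iars, Nupr1, Slc1a4, Slc7a11, Tars, Trib3 and Yars. The cAMP response element TGACGTCA was found for Ppp1r15a alone among the members and in 1.79% of all windows, and the endoplasmic reticulum stress element, CCAAT and CCACG with a fixed spacer between them, was found for 0 members and in 0.119% of windows. A match describes these letters in the window and nothing more. Ppp1r15b, Eif4ebp1, Slc1a5, Slc7a3, Slc7a5, Nars, Wars, Lars and Cars had no window matched.

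The windows of 6 members that hold the core are shown: Trib3, Herpud1, Chac1, Atf3 and Slc1a4, which had an unadjusted p under 0.05 in the comparison below, and Asns, the textbook case of the element. Each runs 5′ to 3′ along the gene's own strand, and capitals mark the core or its reverse complement. They lie at chr2:152344011-152344310 (minus strand) for Trib3, chr8:94386179-94386478 (plus) for Herpud1, chr2:119350992-119351291 (plus) for Chac1, chr1:191183284-191183583 (minus) for Atf3, chr11:20332664-20332963 (minus) for Slc1a4 and chr6:7693160-7693459 (minus) for Asns.
Trib3: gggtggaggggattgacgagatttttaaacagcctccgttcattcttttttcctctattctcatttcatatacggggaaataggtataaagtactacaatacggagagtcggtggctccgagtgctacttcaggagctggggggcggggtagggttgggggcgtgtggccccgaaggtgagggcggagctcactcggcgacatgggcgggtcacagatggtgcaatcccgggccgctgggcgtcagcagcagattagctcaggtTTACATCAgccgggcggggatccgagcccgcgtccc
Herpud1: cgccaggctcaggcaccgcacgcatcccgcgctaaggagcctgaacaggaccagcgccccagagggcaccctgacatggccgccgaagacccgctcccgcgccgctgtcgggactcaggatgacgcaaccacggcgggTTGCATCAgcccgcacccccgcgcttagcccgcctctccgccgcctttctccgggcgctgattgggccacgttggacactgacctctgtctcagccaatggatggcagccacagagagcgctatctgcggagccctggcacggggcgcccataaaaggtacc
Chac1: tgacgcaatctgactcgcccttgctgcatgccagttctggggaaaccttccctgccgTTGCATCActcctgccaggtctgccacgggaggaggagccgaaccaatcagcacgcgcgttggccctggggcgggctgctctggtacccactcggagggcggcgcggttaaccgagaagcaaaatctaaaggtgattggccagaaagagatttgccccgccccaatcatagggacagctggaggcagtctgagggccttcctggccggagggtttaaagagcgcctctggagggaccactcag
Atf3: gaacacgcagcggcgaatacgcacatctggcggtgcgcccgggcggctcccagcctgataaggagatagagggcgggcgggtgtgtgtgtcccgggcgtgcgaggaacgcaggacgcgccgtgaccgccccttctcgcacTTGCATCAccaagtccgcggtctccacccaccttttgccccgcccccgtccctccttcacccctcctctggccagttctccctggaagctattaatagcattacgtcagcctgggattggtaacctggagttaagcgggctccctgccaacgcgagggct
Slc1a4: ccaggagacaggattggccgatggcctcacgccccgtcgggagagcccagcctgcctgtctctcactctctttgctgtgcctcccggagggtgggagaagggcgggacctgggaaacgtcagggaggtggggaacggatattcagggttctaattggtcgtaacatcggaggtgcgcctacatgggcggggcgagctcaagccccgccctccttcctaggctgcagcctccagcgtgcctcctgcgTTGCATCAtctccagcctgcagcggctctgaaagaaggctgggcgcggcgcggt
Asns: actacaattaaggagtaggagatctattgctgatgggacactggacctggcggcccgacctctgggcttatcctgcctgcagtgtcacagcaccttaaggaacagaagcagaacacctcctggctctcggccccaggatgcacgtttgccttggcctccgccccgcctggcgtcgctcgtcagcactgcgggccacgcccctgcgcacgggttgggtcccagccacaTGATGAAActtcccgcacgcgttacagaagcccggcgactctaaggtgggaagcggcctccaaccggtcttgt
In Trib3 the match begins 15 bases into the transcribed side, in Slc1a4 at -4, in Asns at -23, in Atf3 at -110, in Herpud1 at -112 and in Chac1 at -193, counted from the start site. Herpud1, Chac1, Atf3 and Slc1a4 held the same letters, TTGCATCA, in this orientation. Windows of Ddit3, Atf5 and Ddit4, which were also higher in pyruvate medium, held none of the motifs.

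Library totals ran from 20918312 to 26413080 counts. Levels are given as CPM, counts relative to the library total after scaling by TMM factors, and the floor of 3 counts stood at 0.116 to 0.143 CPM, which covers counting error only. A pair of libraries stood apart from their groups. Control replicate 2 differed from control replicates 1 and 3 by a mean chi-square per gene of 47.7 and 37.9, against 3.12 between those. Pyruvate replicate 1 differed from pyruvate replicates 2 and 3 by 16.2 and 12.9, against 4.36 between those. Of 20 germ cell and undifferentiated spermatogonia markers 19 passed the filter, with summed levels of 4173 to 4955 CPM in the control libraries and 3822 to 4368 in pyruvate medium, and Tspan8 did not pass. Control replicate 2 held the highest sum of both the germ cell and the fibroblast markers. Fibroblast and feeder cell markers had 13 of 15 members past the filter and summed levels of 416 to 486 and 402 to 445 CPM, most of it Fn1, and their part in the results below was not tested. Markers of other cell types were detected in part. Of 8 Sertoli cell markers 3 passed the filter, among them Wt1 with 306 to 459 counts a library and Sox9 with 198 to 280, while Fshr had 0 counts in every library. Of 6 Leydig cell markers only Star passed, with 59 to 99 counts, and Hsd3b1, Insl3 and Lhcgr were at 0. Of 6 endothelial markers 5 passed, among them Kdr with 207 to 355 counts, and Emcn was at 0. Of 8 macrophage and immune markers Cd68, with 105 to 149 counts, and Cd14 passed, and Adgre1 was at 0.

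Single markers differed as much as the members did, although none passed edgeR's test. Nanos3 and Nanos2, RNA-binding regulators of germ cells, had log2 fold changes of 0.59 and 0.52 (pyruvate minus control), with no overlap between the groups and the highest counts in pyruvate replicate 1. Eomes, Bcl6b and Lhx1, factors of undifferentiated spermatogonia, stood at -0.72, -0.50 and -0.42, also without overlap. Of the 19 germ cell markers tested, 2 were higher and 4 lower without overlap, beside 11.9% and 10.6% of all tested genes. The other lower marker was Epcam (-0.10). The fibroblast list also holds Thy1, a surface marker that spermatogonial stem cells carry as well. Of the 13 tested genes of that list, 2 were higher and 3 lower in pyruvate medium without overlap, beside the same 11.9% and 10.6%. Thy1, Pdgfra and Fn1 stood at -0.62, -0.18 and -0.17, and Col1a1 and Loxl1 at 0.36 and 0.29. DESeq2 called Thy1 and Eomes lower (adjusted p = 0.0151 and 0.0497). The part of these markers in the members' values was not tested.

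Across the members, mean levels of several stress effectors (Trib3, Herpud1, Chac1, Ddit4) and stress-induced transcription factors (Ddit3, Atf3, Atf5) were higher in pyruvate medium, by up to 1.78-fold for Ddit3, whereas the eIF2 kinases, Asns, nearly all amino acid transporters and the tRNA synthetases lay close to their control levels. In RNA of whole cultures, fewer cells of a type and less RNA per cell cannot be told apart. No member passed the quasi-likelihood test of edgeR at an adjusted p of 0.05, Benjamini-Hochberg over all 14912 genes tested. Against these 0 of 41 members, 0.0536% of all tested genes passed (8 genes), 0.0201% higher and 0.0335% lower in pyruvate medium. An unadjusted p under 0.05 was reached by 8 members, all of them higher in pyruvate medium, while 7.94% of all tested genes were higher at that level and 6.44% lower. The 8 were Ddit3, Trib3, Herpud1, Chac1, Slc1a4, Atf3, Atf5 and Ddit4. The libraries of the groups did not overlap in 13 members, 11 of them higher and 2 lower, against 11.9% of all tested genes higher and 10.6% lower. The log2 fold change, pyruvate minus control, lay above 0 in 29 of 41 members and in 48.1% of all genes, with medians of 0.072 and -0.010. The members' median was 0.051 without control replicate 2, 0.035 without pyruvate replicate 1, 0.020 after removal of the GC and length trend, and 0.0067 without both libraries, where those of all genes were 0.012, -0.0050, -0.044 and 0.0034. Leaving control replicate 2 aside, the groups were separate in 14 members upward and 3 downward, against 20.9% and 20.1% of all genes.

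**Figure D1:**
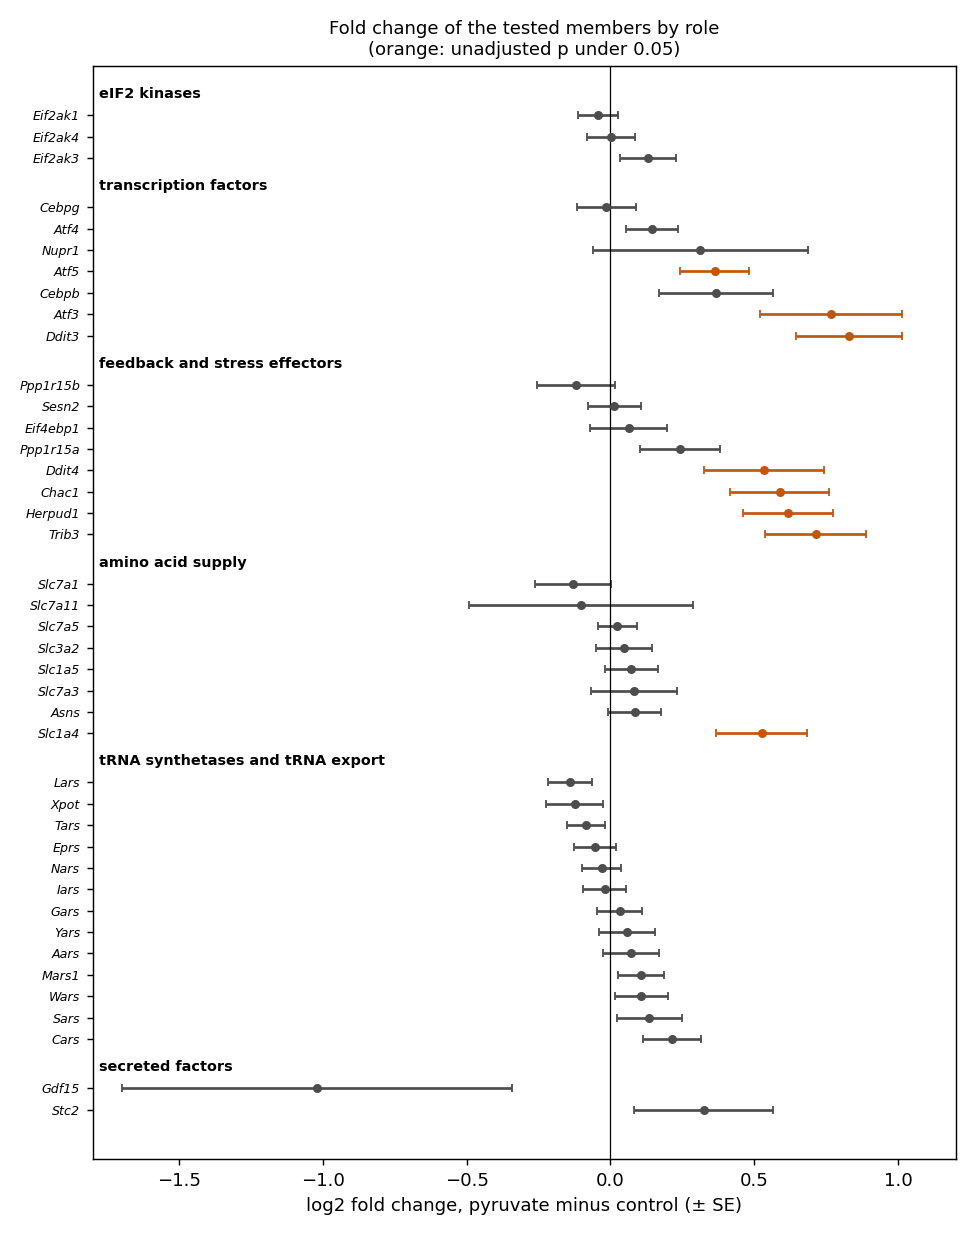
Log2 fold change, pyruvate minus control, of the 41 tested members by role, each point with its standard error, from 3 libraries per group. The 8 orange members reached an unadjusted p under 0.05 and lie between 0.36 (Atf5) and 0.83 (Ddit3); the tRNA synthetases and Xpot lie between -0.14 (Lars) and 0.22 (Cars).

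The 3 eIF2 kinases were present at similar levels in both media. Eif2ak4, the kinase GCN2 that senses uncharged tRNAs, stood at 86.2, 99.0 and 90.4 CPM in the control libraries, in the order of replicates 1, 2 and 3, and at 95.2, 92.7 and 88.1 CPM in the pyruvate libraries, in the same order. Later values follow this order. The ranges overlapped and the log2 fold change was 0.0019 with an SE of 0.082, so no direction is given. Eif2ak3, the kinase PERK of the endoplasmic reticulum, stood at 60.01, 74.1 and 64.4 CPM in the control libraries and 68.9, 73.6 and 74.9 CPM in pyruvate medium. Its groups overlapped through control replicate 2, and its log2 fold change of 0.13 (SE 0.098, adjusted p = 0.579 by edgeR) was 0.22 without that library and 0.067 without control replicate 1. Limma-voom with library quality weights called Eif2ak3 higher (adjusted p = 0.0253), beside 9.35% of all genes called higher. EdgeR's test called it higher without control replicate 2 and pyruvate replicate 1 (adjusted p = 0.00328), beside 12.5% of all genes. Eif2ak1, the haem-regulated kinase HRI that also relays mitochondrial stress, ranged from 102 to 108 CPM over the 6 libraries (log2 -0.043, SE 0.069). Counts of Eif2ak1 and Eif2ak3 are uncertain where their exons overlap those of opposite-strand genes.

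Among the 7 transcription factors, 6 had log2 fold changes above 0, and the median was 0.36. Atf4 itself (ENSMUSG00000042406, chromosome 15, 80255184 to 80257541) stood at 133, 114 and 133 CPM in the control libraries and 149.9, 135 and 135 CPM in pyruvate medium. The groups did not overlap, but the lowest pyruvate library exceeded the highest control by little, and the log2 fold change of 0.14 (SE 0.091, adjusted p = 0.508 by edgeR) was 0.071 without control replicate 2. Because ATF4 is controlled largely at translation, this level says nothing of its protein.

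Ddit3 (ENSMUSG00000025408, chromosome 10, 127290774 to 127296288), which encodes CHOP, a factor linked to death under unresolved stress, had the highest log2 fold change of the 41. It stood at 6.35, 4.79 and 5.21 CPM in the control libraries and 11.9, 7.88 and 9.23 CPM in pyruvate medium. All pyruvate libraries lay above all controls, with replicate 1 the highest, and the means were 5.45 ± 0.80 and 9.67 ± 2.06 CPM (SD, n = 3 each). The log2 fold change was 0.83 (SE 0.18, adjusted p = 0.134 by edgeR). The Ddit3 exons share 68 bases with Mars1 and 13 with Gm4189 on the opposite strand, and 105 bases on the same strand with the second identifier named Ddit3 (ENSMUSG00000116429). That identifier had 0 counts in every library. All of its 105 exon bases lie in this overlap, and how reads shared between genes were assigned is not given. Its counts therefore do not show whether it is expressed. Mars1, the methionyl-tRNA synthetase whose level was far higher than that of Ddit3, at 94.6 against 3.18 CPM per kilobase of exon in control, stood at log2 0.11 (SE 0.080).

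Atf3, an early stress factor, stood at 0.87, 1.06 and 0.86 CPM in the control libraries and 1.24, 1.71 and 1.86 CPM in pyruvate medium, from 18 to 27 and 31 to 44 counts. The groups did not overlap at these low counts, and here replicate 1 was the lowest of the pyruvate libraries (log2 0.77, SE 0.25, adjusted p = 0.225 by edgeR). Atf5, a factor translated much as ATF4 is and tied to the mitochondrial stress response, stood at 8.60, 8.37 and 8.79 CPM in the control libraries and 12.5, 10.2 and 10.4 CPM in pyruvate medium. Its control libraries lay within a narrow range and all pyruvate libraries lay above it (log2 0.36, SE 0.12, adjusted p = 0.234 by edgeR). Cebpb, a dimer partner of ATF4, stood at 4.69, 3.30 and 4.58 CPM in the control libraries and 6.61, 4.81 and 4.73 CPM in pyruvate medium. The groups were separated only narrowly, and the log2 fold change of 0.37 (SE 0.20) was 0.20 without pyruvate replicate 1 and 0.22 without control replicate 2. Cebpg, another partner, stood at log2 -0.014 (SE 0.10), or 0.087 without control replicate 2, and Nupr1, a stress-induced chromatin protein at 1.62 ± 0.36 and 2.02 ± 1.10 CPM, overlapped between the groups. Exons of Atf5, Cebpb and Cebpg overlap other genes.

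**Figure D2:**
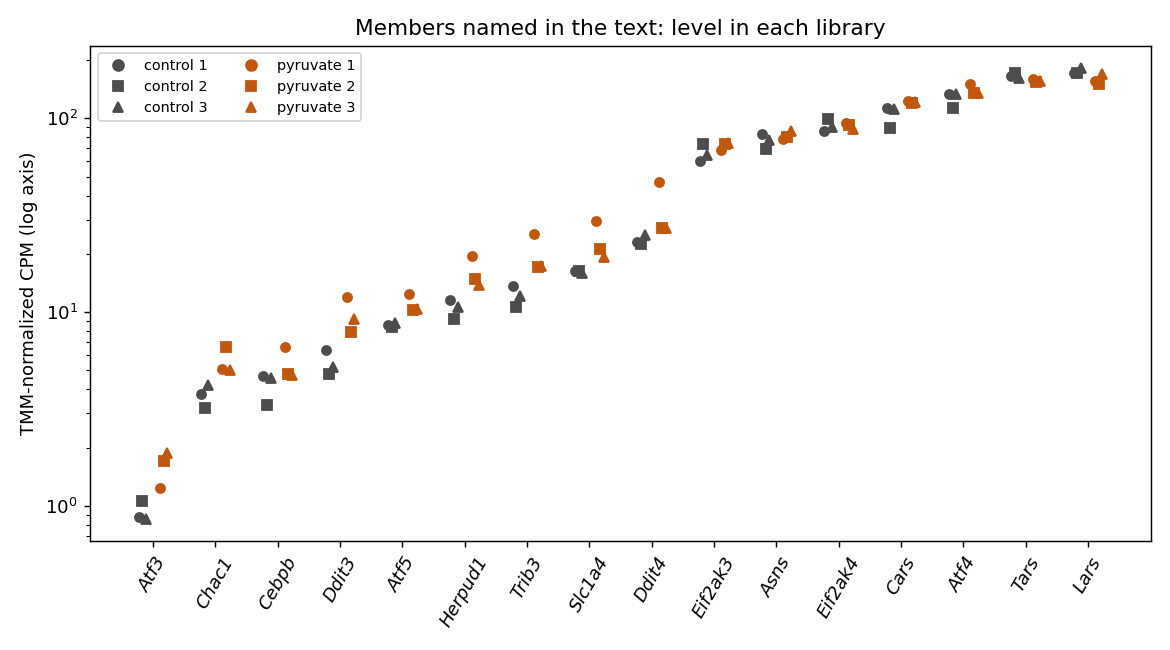
TMM-normalized CPM on a log axis of the 16 members described library by library; grey symbols are control and orange symbols pyruvate libraries, with the symbol giving the replicate. In Ddit3, Trib3, Herpud1, Slc1a4 and Ddit4 the 3 orange points lie above the grey ones and replicate 1 is the highest, while Eif2ak3, Eif2ak4 and Asns overlap.

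Of the 8 stress effectors, 7 had log2 fold changes above 0, with a median of 0.39, and control replicate 2 was the lowest library in 7. In 4 of the 8 the groups did not overlap, all higher in pyruvate medium, beside 11.9% of all tested genes higher without overlap. Trib3 (ENSMUSG00000032715, chromosome 2, 152337422 to 152344032), a pseudokinase that restrains ATF4 and AKT, stood at 13.7, 10.6 and 12.1 CPM in the control libraries and 25.3, 17.1 and 17.3 CPM in pyruvate medium. The pyruvate libraries were all higher, replicate 1 most, and the mean was 1.64-fold that of control (log2 0.71, SE 0.18, adjusted p = 0.155 by edgeR). Herpud1 (ENSMUSG00000031770, chromosome 8, 94386438 to 94395377), which serves the degradation of misfolded endoplasmic reticulum proteins, stood at 11.5, 9.19 and 10.6 CPM in the control libraries and 19.4, 14.7 and 13.8 CPM in pyruvate medium. All pyruvate libraries again lay above the controls, replicate 1 highest, with a 1.53-fold higher mean (log2 0.62, SE 0.16, adjusted p = 0.160 by edgeR).

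Chac1 (ENSMUSG00000027313, chromosome 2, 119351229 to 119354381), which breaks down glutathione, stood at 3.77, 3.18 and 4.20 CPM in the control libraries and 5.06, 6.595 and 5.05 CPM in pyruvate medium. Its groups did not overlap, and replicate 2 was the highest of the pyruvate libraries (log2 0.59, SE 0.17, adjusted p = 0.195 by edgeR). Ddit4 (ENSMUSG00000020108, chromosome 10, 59949669 to 59951834), an inhibitor of mTORC1 also known as REDD1, stood at 22.9, 22.5 and 24.9 CPM in the control libraries and 47.1, 27.3 and 27.3 CPM in pyruvate medium. All pyruvate libraries were above control, but replicate 1 held most of the difference: the log2 fold change of 0.53 (SE 0.21) was 0.23 without it.

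The other effectors did not separate the groups. Sesn2, a leucine sensor and inhibitor of mTORC1, stood at log2 0.014 (SE 0.092) and Eif4ebp1, a repressor of cap-dependent translation, at 0.064 (SE 0.13). Of the eIF2 phosphatase subunits that end the response, the inducible Ppp1r15a (GADD34) stood at 0.24 (SE 0.14) and the constitutive Ppp1r15b (CReP) at -0.12 (SE 0.14). Without control replicate 2, Ppp1r15a stood at 0.12, Ppp1r15b at 0.047, Sesn2 at -0.059 and Eif4ebp1 at -0.076, so the sign of the last 3 rested on that library. Exons of Ppp1r15a and of Ppp1r15b overlap a gene on the opposite strand.

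Among the genes of amino acid supply, Slc1a4 was the only member whose groups did not overlap. Slc1a4 (ENSMUSG00000020142, chromosome 11, 20302180 to 20332713), a transporter of alanine, serine and cysteine, stood at 16.4, 16.3 and 15.9 CPM in the control libraries and 29.4, 21.2 and 19.3 CPM in pyruvate medium. The controls were nearly equal and all pyruvate libraries lay above them, replicate 1 most (log2 0.53, SE 0.16, adjusted p = 0.201 by edgeR). Without pyruvate replicate 1 its log2 fold change was 0.33. Asns (ENSMUSG00000029752, chromosome 6, 7675169 to 7693254), which makes asparagine and is a standard marker of amino acid shortage, stood at 83.5, 69.5 and 77.2 CPM in the control libraries and 78.0, 80.3 and 85.8 CPM in pyruvate medium. Its groups overlapped (log2 0.085, SE 0.092), and without control replicate 2 the log2 fold change was 0.017. Slc7a5 and Slc3a2, which together form the LAT1 transporter of large neutral amino acids, stood at 0.023 (SE 0.068) and 0.048 (SE 0.098). Slc1a5, Slc7a1 and Slc7a3 lay between -0.13 and 0.083, and Slc7a11, the cystine transporter of the xCT system, had only 17 to 54 counts a library (log2 -0.10, SE 0.39). Without control replicate 2, signs turned for Slc7a11 (0.51), Slc7a1 (0.042), Slc3a2 (-0.053) and Slc7a5 (-0.0034), and no direction is given for them.

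The 12 cytosolic tRNA synthetases and the tRNA export receptor Xpot were expressed well and lay close to control, at log2 values of -0.14 to 0.22 with a median of 0.032. Of the 13, 7 lay above 0 and 6 below, and without control replicate 2 the median was -0.011 with 5 above 0. With quality weights it was -0.021 and with the GC and length trend removed -0.028, so no direction is given. Cars, for cysteine, stood at 113, 89.6 and 112 CPM in the control libraries and 123, 120.5 and 122 CPM in pyruvate medium, above every control. Its log2 fold change of 0.22 (SE 0.10, adjusted p = 0.376 by edgeR) was 0.11 without control replicate 2. Lars, for leucine, stood at 172, 172 and 181 CPM in the control libraries and 156, 151 and 170.2 CPM in pyruvate medium, below every control (log2 -0.14, SE 0.076). Tars, for threonine, stood at 165, 171 and 163 CPM in the control libraries and 159.7, 155 and 156 CPM in pyruvate medium, also below every control (log2 -0.084, SE 0.067). Gars was the highest of the synthetases at 115 CPM per kilobase and stood at 0.032 (SE 0.078). Counts of Aars, Mars1, Yars and Cars are uncertain where their exons overlap other genes, 1326 bases with Exosc6 in the case of Aars. Xpot shares 13.7% of its 50-base stretches with Gm7389, and Iars shares 7.15% with Gm4849.

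The secreted factors were scarcely expressed. Fgf21 had 1 to 4 counts a library, at or near the floor of 3 counts, and was not tested. Gdf15 had 4 to 24 counts, at 0.64 ± 0.44 CPM in the control libraries and 0.32 ± 0.28 in pyruvate medium (log2 -1.02, SE 0.68). Stc2, a secreted glycoprotein, stood at 1.82 ± 0.13 and 2.28 ± 0.69 CPM (log2 0.32, SE 0.24). Neither separated the groups.

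Set on a scale per length, the 8 members of unadjusted p under 0.05 were mostly of low level. Mean levels over all libraries ran from 0.089 CPM per kilobase of exon for Slc7a11 to 159 for Slc7a5. At a division of 10 CPM per kilobase, chosen after the values were seen, 14 members lay at or under it and had a median log2 fold change of 0.37, with 7 of the 8 members of unadjusted p under 0.05. The 27 members above it had a median of 0.048, and Ddit4 was the only one of the 8 among them. The log2 fold change lay above 0 in 11 of the 14 members and in 18 of the 27. Standard errors are also wider at low levels, as for Slc7a11 and Gdf15. Of the 13 tested members whose promoter window held the C/EBP-ATF core, 5 had groups separated upward and the median log2 fold change was 0.085. Of the 19 tested members with a window and no core, 5 were separated upward as well and the median was 0.11. Among all tested genes 11.9% were separated upward.

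**Figure D3:**
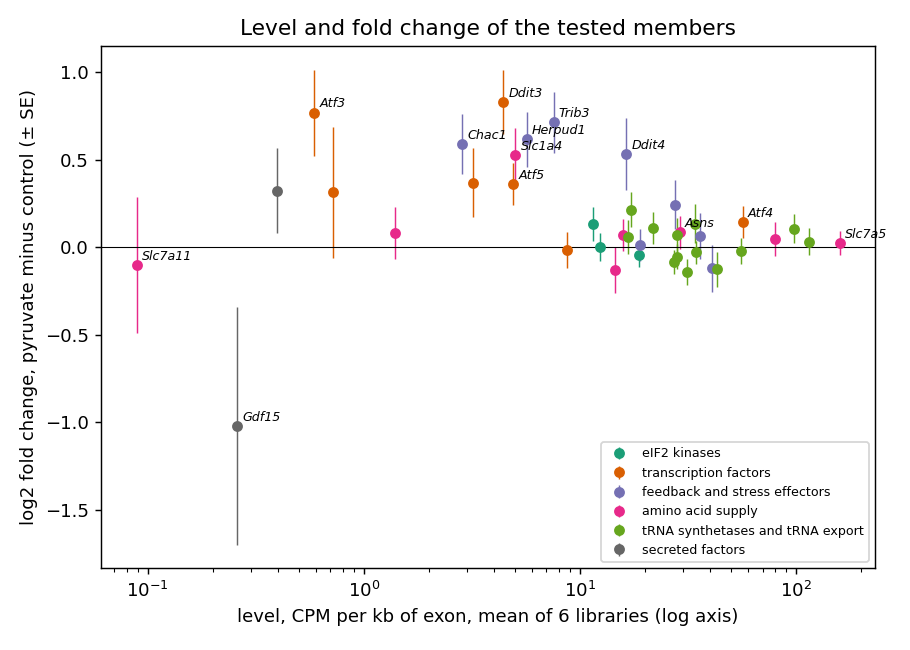
Log2 fold change (± SE), pyruvate minus control, against the mean level over 6 libraries in CPM per kilobase of exon on a log axis, for the 41 tested members coloured by role. Of the 9 members from Atf5 (0.36) to Ddit3 (0.83), 8 lie at or under 10 CPM per kilobase, and Slc7a5 at 159 lies near 0.

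The libraries that stood apart were also the extremes for the members. Pyruvate replicate 1 was the highest of the 6 libraries in 21 of 41 members, and in 24.5% of all tested genes. Control replicate 2 was the lowest in 23 of 41 members, and in 29.3% of all tested genes, although it was also the highest in 31.2% of them. Both held in 18 members and in 15% of all tested genes. The median deviation of the 8 stress effectors from their mean over all libraries was -0.15, -0.37 and -0.080 on the log2 scale for control replicates 1, 2 and 3, and 0.26, 0.0073 and 0.026 for the pyruvate replicates. For the 7 transcription factors it was -0.049, -0.21 and -0.14 and then 0.36, 0.044 and 0.021. Among the 12 synthetases and Xpot, control replicate 2 was low at -0.13 and pyruvate replicate 1 high at 0.080, while the other 4 libraries lay between -0.025 and 0.033. What set these 2 libraries apart was not tested.

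**Figure D4:**
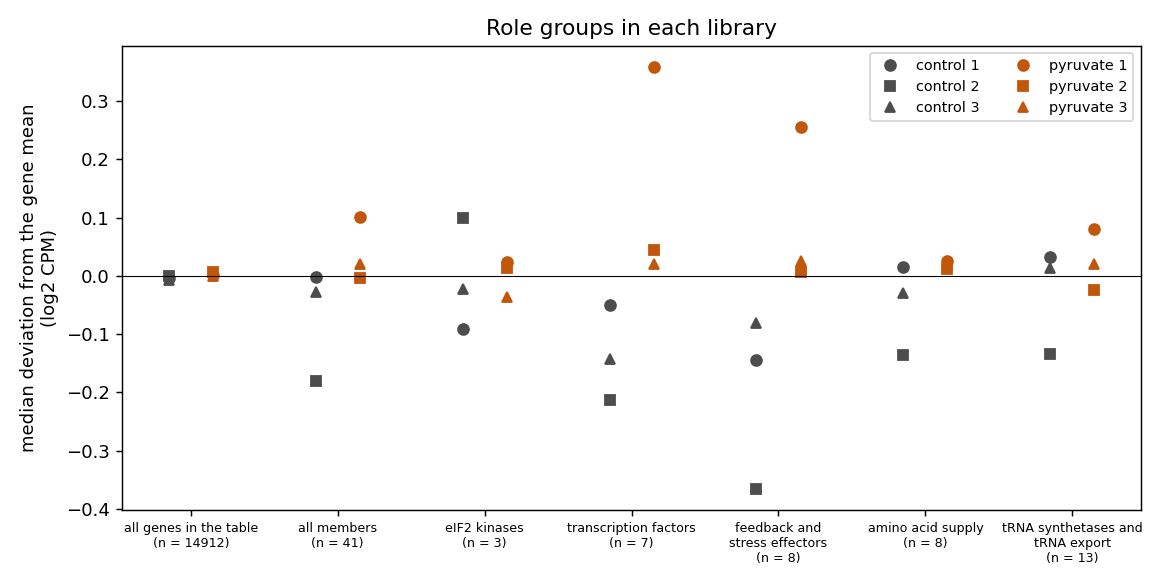
Median deviation of log2 CPM from each gene's mean over 6 libraries, for all tested genes, all members and the role groups with 3 or more tested members; grey symbols are control and orange symbols pyruvate libraries. For transcription factors and stress effectors pyruvate replicate 1 is the highest (0.36 and 0.26) and control replicate 2 the lowest (-0.21 and -0.37), while pyruvate replicates 2 and 3 still lie above all controls.

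Which members passed the test depended on the libraries and the method. Without control replicate 2, 625 genes passed edgeR's test (4.16%), 351 higher (2.33%) and 274 lower (1.82%), and 0 of the 41 members did. Ddit3 came nearest in that fit (log2 0.74, adjusted p = 0.0573), followed by Trib3 (0.62, adjusted p = 0.0798) and Herpud1 (0.53, adjusted p = 0.0826). In it 8 members had an unadjusted p under 0.05 upward and 1 downward, while 21.8% of all genes reached that level in either direction. Without both control replicate 2 and pyruvate replicate 1, a fit on 2 libraries per group chosen after the data were seen, 7 members passed edgeR's test upward and 0 downward, against 12.5% of all genes upward and 11.2% downward. These were Ddit3, Trib3, Herpud1, Chac1, Atf3, Slc1a4 and Eif2ak3, with log2 fold changes of 0.55, 0.41, 0.36, 0.55, 1.03, 0.32 and 0.25. All but Atf3 and Eif2ak3 were smaller than with all libraries.

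With all libraries, DESeq2 called Ddit3, Trib3 and Herpud1 higher (adjusted p = 0.00856, 0.0182 and 0.0355), beside 317 genes in all (2.13%), 1.22% higher and 0.905% lower. The same 3 passed edgeR's test with each library's trend on GC content and transcript length removed (adjusted p = 0.0294, 0.0299 and 0.0362). That step called 779 genes (5.22%), of which 205 were higher (1.37%) and 574 lower (3.85%), so the division between directions also moved. Limma-voom called 0 members, and with library quality weights it called 7, all higher, beside 17.1% of all genes, 9.35% higher and 7.79% lower. In each fit that left out a single library, the log2 fold changes of Ddit3, Trib3 and Herpud1 stayed above 0, within 0.66 to 0.96, 0.51 to 0.81 and 0.46 to 0.71, and none of these fits called them.

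**Figure D5:**
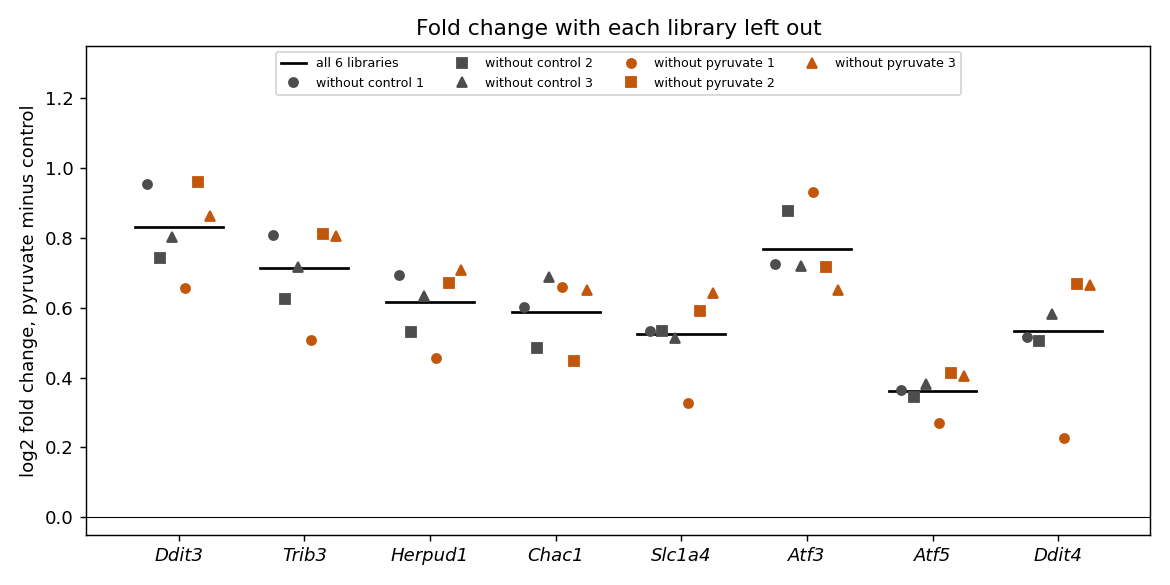
Log2 fold change, pyruvate minus control, of the 8 members of unadjusted p under 0.05 with all 6 libraries (black line) and with each library left out (symbols, grey for a control and orange for a pyruvate library left out). Every value lies above 0, and leaving out pyruvate replicate 1 lowers Ddit4 from 0.53 to 0.23 and Slc1a4 from 0.53 to 0.33.

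Genes of the pathway outside the members had 0 calls by edgeR's test over all genes in each of 8 lists, whereas DESeq2 called Got1 and Slc38a1 lower (adjusted p = 0.0440 and 0.00211). Of 18 genes for eIF2, eIF2B and regulators of the kinases, 7 lay above 0 with a median log2 fold change of -0.013, and 0 had an unadjusted p under 0.05 upward and 2 downward. Eif2s1, the alpha subunit of eIF2 that the kinases phosphorylate, stood at 148 ± 4.23 CPM in the control libraries and 129 ± 1.34 in pyruvate medium (log2 -0.20, adjusted p = 0.234 by edgeR), and Oma1, a mitochondrial protease that signals to HRI, at -0.25 (adjusted p = 0.329). Of 14 ATF4 targets for serine, one-carbon, proline and transsulfuration enzymes, 7 lay above 0 with a median of -0.0058 and 1 gene reached an unadjusted p under 0.05 in each direction. Got1, the cytosolic aspartate aminotransferase, stood at -0.39 and Cbs, which starts transsulfuration, at 0.65 (adjusted p = 0.155 and 0.275 by edgeR). Of 16 genes of the ATF6 and XBP1 arm, which serves the same organelle as Herpud1, 6 lay above 0 with a median of -0.0013 and 0 reached an unadjusted p under 0.05. The lowest adjusted p by edgeR were 0.526 for Manf and 0.528 for Xbp1.

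Of 8 other cytosolic tRNA synthetases 4 lay above 0 and 0 reached an unadjusted p under 0.05, with Kars and Farsa lowest in p (adjusted p = 0.473 and 0.563 by edgeR). Of 17 mitochondrial tRNA synthetases 10 lay above 0 (6 after removal of the GC and length trend), with 4 at an unadjusted p under 0.05 upward and 1 downward. Pars2 stood at 0.48 and Cars2 at 0.35 (adjusted p = 0.139 and 0.167 by edgeR). Of 15 other amino acid transporters 6 lay above 0 (10 without control replicate 2), with 1 at an unadjusted p under 0.05 upward and 5 downward. Slc38a1, a glutamine and alanine carrier, stood at -0.49 and Slc43a2, a carrier of large neutral amino acids, at 0.41 (adjusted p = 0.105 and 0.167 by edgeR). Of 14 genes of amino acid sensing and mTORC1, 10 lay above 0 (6 after removal of the GC and length trend) and 3 had an unadjusted p under 0.05, all upward, with Sesn1 at 0.28 and Rptor at 0.18 (adjusted p = 0.189 and 0.317 by edgeR). Of 10 mitochondrial stress genes 3 lay above 0 and 1 had an unadjusted p under 0.05, downward, with the chaperonin Hspd1 at -0.18 and the mitochondrial transcription factor Tfam lowest in p (adjusted p = 0.266 and 0.471 by edgeR). Exons of Cars2, Slc43a2, Rptor, Manf, Hspd1 and Slc7a7 overlap other genes. Without control replicate 2, edgeR's test called Got1, Kars, Slc38a1 and Slc7a7 lower and Slc43a2 higher among these lists, in a fit that called 2.33% of all genes higher and 1.82% lower.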

How the data were processed

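The 6 libraries were sequenced as mRNA. By the labels' protocols, TRIzol extraction was followed by column purification, and the library kit keeps strand. The authors deposited raw counts per gene, with no normalization. Per the submitters' processing notes the tools were HTSeq 2.0.5, STAR 2.7.11a, cutadapt 4.6 and bcl2fastq 2.20, and the build was mm10. For the annotation release and the strand setting, nothing is given in the sources used here. The table has 3 more columns, which could be tied to no sample and were not used. Symbols, positions and exon lengths are those of GENCODE M21 on GRCm38, which matched 32158 of 32285 identifiers, and Mars1 was matched as Mars.

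The tests ran in edgeR 4.0.16 (R 4.3.3) on the deposited counts: filterByExpr with a minimum count of 10, TMM factors, and robust quasi-likelihood fits of the group alone. P-values were adjusted by Benjamini-Hochberg over 14912 genes, with a threshold of 0.05. SE stands for the size of the log2 fold change over the root of its F statistic. Deviations of a library used log2 CPM with a prior count of 2. The fit was tested on simulated data. Alternatives used DESeq2 1.42.0, limma 3.58.1, other scalings and filters, GC and length splines with 5 degrees of freedom, the replicate number as a block, and left-out libraries. Replicate counts differed by more than sampling noise. The labels do not say that replicates are separate cultures, so p-values reflect spread that may be technical. The members and lists were chosen with earlier results of these data known. Library-by-library values are given for 8 members fixed by name and for each member with an unadjusted p under 0.05 or with groups that do not overlap; from other lists, for the 2 genes of lowest p and any past the threshold.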

Additional observations from a re-analysis of the deposited data

How the results depend on the processing

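With all libraries, genes past the threshold numbered 8 by edgeR's test, 14 under scaling by library totals, 15 under upper-quartile factors, 83 with no filter on low counts, 317 by DESeq2, 265 with the replicate block, 779 with the GC and length trend removed, 1845 with both of these steps and 2556 by limma-voom with quality weights. Members past it numbered 3 by DESeq2, 3 with the block, 3 with the trend removed, 5 with both (Ddit3, Trib3, Herpud1 and Slc1a4 higher, Slc7a1 lower), 7 with quality weights, and 0 under the other scalings, the filters and plain limma-voom. Leaving out 1 library gave 0 to 625 genes and 0 members. Leaving out control replicate 2 and pyruvate replicate 1 together, an alternative chosen after seeing the data, gave 3520 genes and 7 members.

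The labels do not say whether the replicate numbers pair the samples. Correlations of deviations between libraries of the same number were 0.311, 0.311 and -0.0726, and those of differing numbers ran from -0.385 to 0.214. Control replicate 3 correlated best with pyruvate replicate 1. Deviations within a group of 3 libraries are not independent, so these correlations cannot decide whether the samples are paired. The block fit above therefore rests on a pairing that is not known.

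The median log2 fold change of the transcription factors was 0.14 with quality weights, 0.20 without pyruvate replicate 1 and 0.088 without both libraries, with 0.20 to 0.45 over the fits without 1 library. That of the stress effectors was 0.16, 0.18 and 0.15 in the same fits, with 0.18 to 0.48 over the fits without 1 library. The median of amino acid supply was -0.0067 with the trend removed and -0.00046 with the block added. That of the secreted factors was -0.75 without pyruvate replicate 3 and -0.0056 without control replicate 3, and could not be given under the filter of 5 CPM, which left no member; that filter also removed Atf3 and Cebpb. Eif2ak4 turned to -0.0039 under DESeq2 size factors, -0.0040 by DESeq2, -0.052 with the trend removed, -0.053 with the block added, and lay between -0.041 and 0.060 in the fits without 1 library, 4 of them below 0 (-0.041, -0.0058, -0.017 and -0.0037). The cause of these shifts was not tested.

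In the other lists, calls in the order of eIF2 regulators, ATF4 enzymes, cytosolic synthetases, mitochondrial synthetases, transporters, sensing and mTORC1, ATF6 and XBP1 arm, and mitochondrial stress numbered 2, 2, 1, 3, 6, 3, 0 and 2 with quality weights. The lists held 18, 14, 8, 17, 15, 14, 16 and 10 tested genes in that order. Calls numbered 0, 2, 0, 1, 4, 0, 0 and 1 with the trend removed, 0, 2, 0, 2, 5, 1, 1 and 1 with the block added, and 4, 2, 2, 4, 7, 4, 1 and 2 without both libraries. Of all tested genes, the same fits called 17.1% with quality weights, 5.22% with the trend removed, 12.4% with the block added and 23.7% without both libraries. Transporters had 1 call with no filter, with the block and by DESeq2, which also called 1 ATF4 enzyme. Leaving out 1 library gave 0 to 1 calls in enzymes, 0 to 1 in cytosolic synthetases and 0 to 3 in transporters. Depth limits Fgf21, Gdf15, Slc7a11 and Atf3, each with a library under 20 counts.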
